A study of Mus musculus with 16 samples.

Results

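Cultured mouse proximal tubular cells were compared after hypoxia and reperfusion (H/R) with cells in normal culture, with vitamin B12 present in both groups. The comparison uses the 4 arrays labelled H/R+B12 and the 4 labelled control+B12, which are 8 of the 16 arrays of the series, and takes in all 22206 probe sets that are not control features. No probe set was chosen for its values, and 19505 named genes are among them. A further 8 arrays, 4 of H/R and 4 of control without B12, share no array with this comparison and serve here as a second measurement of the same treatment.

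All samples were BU.MPT cells, a proximal tubular line from a mouse that carries a temperature-sensitive large T antigen under an interferon-inducible promoter. They were grown at 39 °C without interferon-γ, which leaves the large T antigen off. Control+B12 cells stayed in 21% oxygen with 10% serum and 4.5 g/L glucose, with 0.3 µM cyanocobalamin added. H/R+B12 cells spent 3 h at about 1% oxygen in medium with 0.3 µM cyanocobalamin but neither glucose nor serum, followed by 1 h back in oxygen, glucose and serum. Loss of oxygen, glucose and serum came together, as did their return, so these cannot be told apart. One cell line was used throughout, and separate cultures per replicate are not stated in the labels. The p-values therefore speak for the scatter of arrays within groups, pooled over all 16 arrays of the series, part of which may be technical. Free-text descriptions of replicates 2 to 4 read B13, B14 and B15 where the titles read B12, and they were taken as B12.

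Proximal tubular cells reabsorb most of the filtered load and pay for it with oxidative metabolism in mitochondria, which makes this kidney segment sensitive to loss of oxygen. Falling oxygen stabilises the hypoxia-inducible factor HIF, and lack of nutrients is read by the kinases mTOR and AMPK and by the translation factor kinases that feed into the transcription factor ATF4. The return of oxygen, glucose and serum adds oxidants and growth factors. Proteins for secretion and for the membrane enter the endoplasmic reticulum (ER), where they are folded and glycosylated, and cells adjust that capacity through the unfolded protein response. Vitamin B12 is the cofactor of methionine synthase in the cytosol and of methylmalonyl-CoA mutase in mitochondria.

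Values are log2 RMA signals as deposited, and differences are H/R+B12 minus control+B12 on that scale, with the standard error (SE) of the limma fit and 4 arrays against 4. A probe set was called when its limma p-value, adjusted over all 22206 probe sets by Benjamini and Hochberg, was under 0.05, and "rose" and "fell" are used only for called genes. Signals reached 19.46, above the 16 that a 16-bit scan allows on a log2 scale, so the size of a difference holds for the deposited scale. A value counts as below background when it lies under 5.72, the lowest median of the negative control features in the 8 arrays. The arrays were alike: arrays of one group correlated at 0.990 to 0.993 across probe sets and arrays of different groups at 0.984 to 0.987. Array medians were 5.21 to 5.28 in H/R+B12 and 5.28 to 5.38 in control+B12, a difference of -0.085 (two-sided exact permutation p = 0.0286, the smallest that 4 against 4 allows).

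The cell type was checked against markers. Group means of 26 of 31 proximal tubule markers lay below background in both groups, among them Hnf4a, Lrp2 and Slc34a1, which define the differentiated tubule and were picked out after their values were seen. Of the markers that were measured, the bicarbonate cotransporter Slc4a4 rose (1.93 ± 0.21), the endocytic adaptor Dab2 rose (0.66 ± 0.15), the water channel Aqp1 fell (-0.87 ± 0.16) and the membrane peptidase Mme fell (-0.61 ± 0.11). In 4 lists for other cells most markers were below background too: 19 of 21 for the later nephron, 14 of 15 for fibroblasts, 14 of 15 for endothelium and 18 of 20 for leukocytes. Among these 4 lists, called genes were limited to 2 leukocyte markers, and one of them, the endotoxin co-receptor Cd14 (0.86 ± 0.13), also occurs on epithelia. Podocyte markers differed: 3 of 8 were below background in both groups, and 5 had a mean over all arrays at or above it. Of these 8 markers 1 rose, and the number higher was 0 to 1 over the alternative settings. The injury marker Havcr1 was below background in both groups, and Lcn2 was at 18.83, 18.59, 18.61 and 18.92 in control+B12 and 19.03, 18.99, 18.86 and 18.73 in H/R+B12. Lcn2 arrays of the groups overlapped, with a difference of 0.16 ± 0.13 that was not called.

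The response was broad and mostly shallow. Of 22206 probe sets, 4142 were called (18.7%), 2007 of them higher (9.04%) and 2135 lower (9.61%) after H/R+B12. A change of at least 2-fold was found in 1190 (5.36%), 675 higher (3.04%) and 515 lower (2.32%), so 71.3% of called probe sets changed by less. The median size among called probe sets was 0.80 on the log2 scale and the smallest was 0.33. In 4779 probe sets (21.5%) the 4 arrays of one group all lay above the 4 of the other. Centring each array on its own median moved the split of calls from 48.5% higher to 60.1% higher, with 2417 higher and 1605 lower, so the balance of directions depends on the scaling.

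A background share was taken from expressed probe sets. Probe sets with a mean over all arrays at or above the background value numbered 10690, and 3778 of these were called (35.3%), 1862 higher (17.4%) and 1916 lower (17.9%). Groups of genes active in these cells are read against that share, and those with many silent members against 18.7%. A called share near or under these marks no response of a list, though its direction can be uneven. Of lists given below by counts alone, those of junctions, the lysosome, N-glycans, mitochondrial carriers, autophagy and integrins were called at 22.6% to 30.6%. Those of growth factor ligands, nuclear receptors, cytokine receptors, mitochondrial ribosome, tubulins, Notch and ER-associated degradation were called at 31.4% to 34.6%. The 1400 olfactory and vomeronasal receptors, of which 1397 lay below background, had 22 called (1.57%), and 34 without control+B12 array 4. The 101 gene lists used below hold 32.4% of the measured genes and 37.7% of the called ones. The median difference over all probe sets was -0.04, against which the medians of the lists are given.

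**Figure D1:**
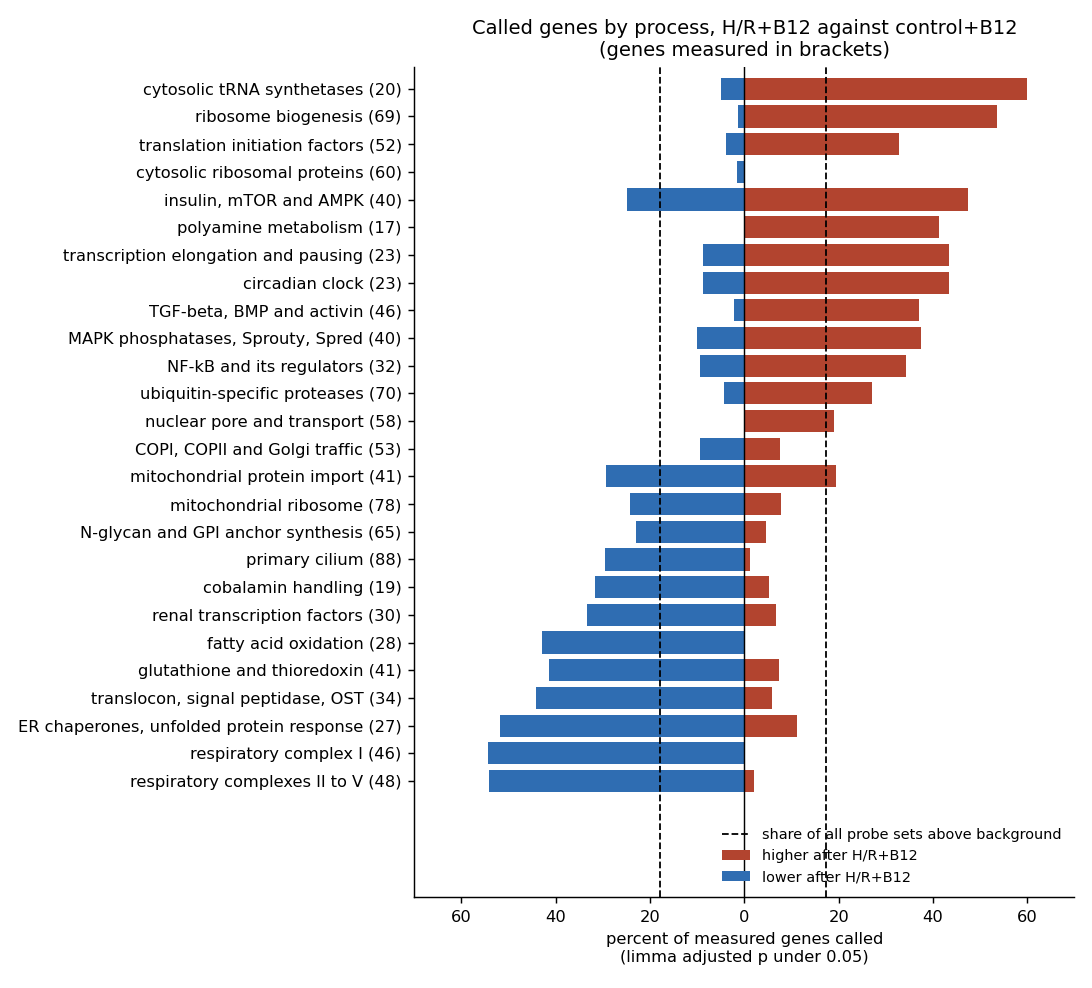
Share of measured genes called higher (red, to the right) and lower (blue, to the left) after H/R+B12 in 26 gene lists, in percent, with the number of measured genes in brackets and dashed lines at the shares of all probe sets above background, 17.4% higher and 17.9% lower. Cytosolic tRNA synthetases reach 65% called, nearly all higher, and respiratory complex I 54.3%, all lower, while ribosomal proteins stay at 1.67%.

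Promoter sequence is shown for 2 groups of stress genes that moved in opposite directions, because each shares a short element. The ER stress element is CCAAT and CCACG with 9 bases between them and is bound by the ER stress factor ATF6 with NF-Y. It was searched on both strands in the 250 bases before each gene's start in RefSeq (GRCm38.p6). It was present in 8 of 24 genes of ER folding and the unfolded protein response (33.3%) and in 26 of 15691 measured genes with a promoter (0.166%). Of the 26 genes, 8 fell and 0 rose, with a median difference of -0.29, and of the 8 in the ER list 6 fell. The other 18 genes with the element thus held 2 that fell. Of all measured genes with a promoter, 1626 fell (10.4%) and 1457 rose (9.29%). Their elements, with the matching letters in capitals and the gene's own strand read 5′ to 3′, are as follows.
Calr, chr8:84847060-84847108, gene on the minus strand: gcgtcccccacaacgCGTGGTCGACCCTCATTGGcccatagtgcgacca
Creld2, chr15:88819505-88819553, gene on the plus strand: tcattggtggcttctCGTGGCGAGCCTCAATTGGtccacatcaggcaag
Dnajc3, chr14:118937812-118937860, gene on the plus strand: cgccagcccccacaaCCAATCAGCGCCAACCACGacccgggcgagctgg
Ero1b, chr13:12565667-12565715, gene on the plus strand: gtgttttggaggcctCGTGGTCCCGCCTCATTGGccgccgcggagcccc
Hsp90b1, chr10:86705518-86705566, gene on the minus strand: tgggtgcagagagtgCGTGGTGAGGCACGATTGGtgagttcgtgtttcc
Pdia6, chr12:17266476-17266524, gene on the plus strand: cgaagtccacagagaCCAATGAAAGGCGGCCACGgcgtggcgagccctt
Hspa5, chr2:34772010-34772058, gene on the plus strand: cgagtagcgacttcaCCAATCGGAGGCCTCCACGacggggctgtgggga
Canx, chr11:50325785-50325833, gene on the minus strand: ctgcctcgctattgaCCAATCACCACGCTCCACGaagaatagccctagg
The last pair, of the chaperones Hspa5 (BiP) and Canx (calnexin), shows the list members that hold an element and were not called. Hsp90b1 holds a second element, and all lay between 47 and 212 bases before the start. The number of the 8 genes that fell was 5 to 7 over the alternative settings.

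The amino acid response element TGATGNAAN, bound by ATF4 with a C/EBP partner, was present in 7 of 25 genes of the ATF4 list (28%) and in 535 of the 15691 (3.41%). Of those 7 genes, 4 rose and 0 fell. They are asparagine synthetase (Asns), the glutathione-degrading enzyme Chac1, the cystine transporter Slc7a11 and the lipoprotein receptor Vldlr, and their elements are given in capitals on the gene's strand.
Asns, chr6:7693210-7693247, gene on the minus strand: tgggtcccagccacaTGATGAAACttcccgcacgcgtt
Chac1, chr2:119351033-119351071, gene on the plus strand: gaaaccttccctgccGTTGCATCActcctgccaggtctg
Slc7a11, chr3:50443638-50443676, gene on the minus strand: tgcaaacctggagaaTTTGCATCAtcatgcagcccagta
Slc7a11, chr3:50443656-50443694, gene on the minus strand: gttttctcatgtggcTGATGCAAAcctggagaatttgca
Vldlr, chr19:27216804-27216842, gene on the plus strand: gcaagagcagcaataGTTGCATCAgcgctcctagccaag
Over all genes the element marked neither direction: it was in 2.81% of genes that rose and 2.46% of those that fell. A match of letters is no measurement of binding, and other genes of both lists had none in this window. Among the other motifs of the 14 searched, the E-box CACGTG was in 10.0% of the rising and 9.78% of the falling genes, against 7.92% of all, and the ETS motif CCGGAAGT in 7.0% and 6.09%, against 4.43%. The cAMP element TGACGTCA was in 3.84% of the rising and 1.85% of the falling genes, against 2.27% of all. The NRF1 element was in 1.24% and 2.28%, against 1.27%. Most called probe sets were expressed (3778 of 4142), while the shares of all genes take in silent genes too. A higher share in both directions therefore cannot be read as a trait of responding genes. These shares are descriptions and were not tested.

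The stress responses that carry the largest changes were all present. 20 of 32 HIF targets rose and 1 fell, the cytosolic heat shock list had 12 of 18 higher and 0 lower, and the immediate early list 27 of 35 higher and 1 lower. Cholesterol synthesis had 15 of 18 genes higher and 1 lower, and the ATF4 response 19 of 28 higher and 2 lower. Examples are the ER oxidase Ero1a (4.19 ± 0.16), the glucose transporter Slc2a1 (3.01 ± 0.16), the transcription factor Atf3 (4.34 ± 0.20), the sterol enzyme Cyp51 (2.00 ± 0.17) and the mitochondrial folate enzyme Mthfd2 (3.41 ± 0.22). The members of the ATF4 list that fell were the secreted hormone Stc2 (-0.69 ± 0.13) and the serine synthesis enzyme Phgdh (-0.65 ± 0.14). Glycolysis as a whole did not follow its first enzyme: hexokinase 2 (Hk2) rose by 2.91 ± 0.18, but among 19 glycolytic genes 2 rose and 1 fell. An intensity trend with robust variances called 7 glycolytic genes higher and array-median centring 5.

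Nutrient sensing was among the most widely changed groups. Of 40 genes of insulin, mTOR and AMPK signalling, 19 rose and 10 fell (72.5% called, median 0.26). Ddit4, which restrains mTOR complex 1 through the TSC complex, read 10.24, 10.74, 11.09 and 10.58 in control+B12 and 12.08, 12.35, 12.32 and 12.47 in H/R+B12. All 4 H/R+B12 arrays lay above all control+B12 arrays, a difference of 1.64 ± 0.19. Some other brakes on mTOR also rose: the leucine sensor Sesn2 by 2.47 ± 0.32 and the TSC subunit Tsc1 by 1.06 ± 0.14. The AMPK subunit Prkab2 rose by 1.14 ± 0.16. Among those that fell, Pik3r3, a regulatory subunit of PI 3-kinase, read 11.07, 10.99, 10.56 and 10.70 in control+B12 and 9.03, 8.90, 9.34 and 9.42 in H/R+B12. Its groups did not overlap either (-1.65 ± 0.19). Castor2, of the family of arginine sensors upstream of mTOR, fell (-1.12 ± 0.14). Sesn1, a relative of Sesn2 in the p53 target list, fell too (-0.96). Without B12 the same list had 15 higher and 8 lower.

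Some genes of amino acid and polyamine supply changed. Of 33 amino acid transporters 7 rose and 5 fell (36.4%, median -0.01), and 12 lay below background. That called share was near the 35.3% of expressed probe sets. The large neutral transporter Slc7a5 rose by 3.63 ± 0.22, its heavy chain Slc3a2 by 1.44 ± 0.13 and the cationic transporter Slc7a1 by 2.15 ± 0.15. The taurine transporter Slc6a6 fell (-0.92 ± 0.13), as did the aromatic amino acid transporter Slc16a10 (-1.23 ± 0.20). Polyamine metabolism had 7 of 17 genes higher and 0 lower (median 0.37). They included ornithine decarboxylase, Odc1 (0.85 ± 0.15), its antizyme inhibitor Azin1 (1.03 ± 0.17) and spermine oxidase, Smox (1.27 ± 0.17), so enzymes of synthesis and of breakdown were both higher.

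The machinery that makes proteins was divided. Of 20 enzymes that charge tRNAs in the cytosol 12 rose and 1 fell (65%, median 0.80). The cysteinyl-tRNA synthetase Cars read 10.56, 10.33, 9.89 and 10.35 in control+B12 and 12.58, 13.20, 12.82 and 12.75 in H/R+B12. The groups were far apart, by 2.55 ± 0.19. Yars, Iars and Tars, for tyrosine, isoleucine and threonine, rose by 1.79 ± 0.18, 1.49 ± 0.15 and 1.5 ± 0.16, and Qars, for glutamine, fell (-0.58 ± 0.14). Without B12 the list had 12 higher and 1 lower, with a median of 0.76.

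Ribosome biogenesis, the nucleolar work of processing ribosomal RNA and assembling subunits, also had nearly all its called genes higher. 37 of its 69 genes rose and 1 fell (55.1%, median 0.57), with 32 higher and 1 lower without B12. Tsr1, a maturation factor of the small subunit, read 9.38, 9.32, 9.65 and 9.32 in control+B12 and 11.11, 11.06, 11.11 and 10.96 in H/R+B12. No H/R+B12 array came near the control arrays (1.64 ± 0.14). The processome components Heatr1, Utp4 and Utp18 rose by 1.28 ± 0.16, 1.06 ± 0.13 and 0.98 ± 0.12. Nop10, a small protein of the pseudouridylation particles and of telomerase, was the exception and fell (-0.95 ± 0.12).

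Genes for the ribosomal proteins themselves did not follow. Of 60, 0 rose and 1 fell, the paralog Rps27l (-0.65 ± 0.16), and their median was 0.02. That list holds 1.67% called genes, far below the 35.3% of probe sets above background, and its median changed sign under quantile normalization and without H/R+B12 array 3. Many ribosomal protein genes have processed copies elsewhere in the genome, and array probes may not separate them.

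Initiation factors lay between these groups. 17 of 52 rose and 2 fell (36.5%, median 0.23), against 8 and 3 without B12. The called share with B12 was near the 35.3% of expressed probe sets. With an intensity trend and robust variances the number lower reached 6, and it was 1 to 6 over all settings. Eif4ebp1, the repressor of cap-dependent initiation that mTOR controls and ATF4 induces, read 11.21, 11.60, 11.90 and 11.53 in control+B12 and 13.60, 13.61, 13.40 and 13.64 in H/R+B12. The difference was 2.00 ± 0.15 with no overlap. Eif1a and Eif1b, which help the small subunit find the start codon, rose by 1.22 ± 0.14 and 1.41 ± 0.17, and Eif2s2, the beta subunit of eIF2, by 0.77 ± 0.12. Eif2d, which can place initiator tRNA without eIF2, fell (-0.55 ± 0.13).

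**Figure D2:**
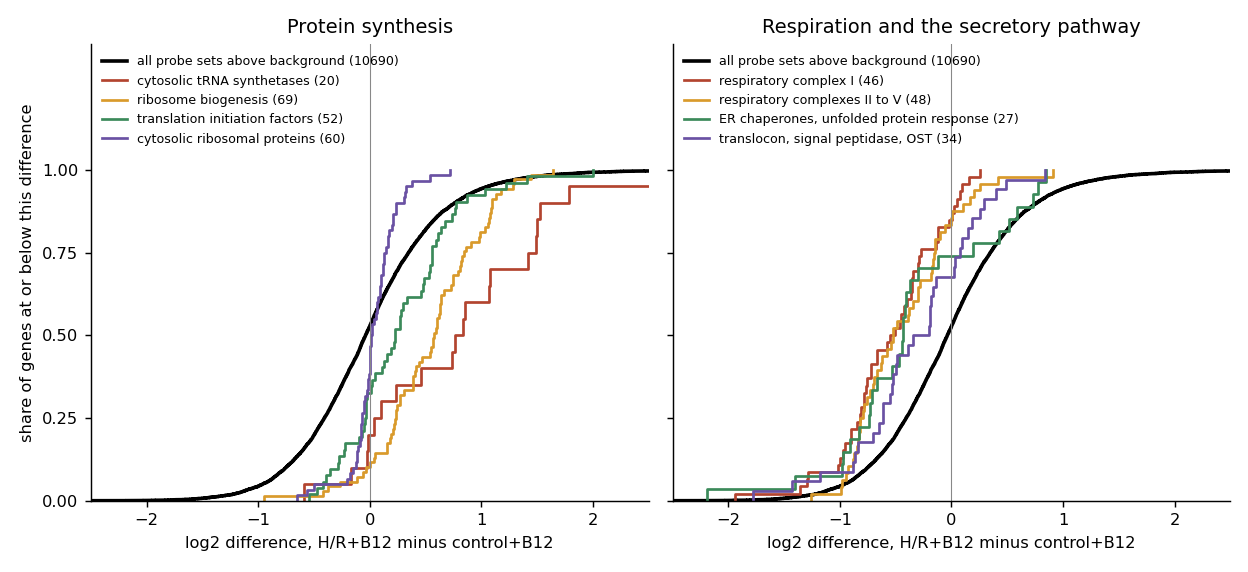
Cumulative distribution of the log2 difference (H/R+B12 minus control+B12, x axis) as the share of genes at or below it (y axis), for gene lists of protein synthesis (left) and of respiration and the secretory pathway (right), against the 10690 probe sets above background in black. The x axis ends at -2.5 and 2.5. tRNA synthetases (median 0.80) and ribosome biogenesis (median 0.57) lie to the right of the black curve, ribosomal proteins (median 0.02) rise steeply at 0, and complex I (median -0.53) lies to the left.

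In the nucleus, 10 of 23 factors that govern pausing and elongation of RNA polymerase II rose and 2 fell (52.2%, median 0.35). In a fit of the 8 arrays alone 6 were higher. The elongation factor Ell2 rose by 1.42 ± 0.20 and Ell by 0.87 ± 0.20, the bromodomain protein Brd2 by 1.0 ± 0.15 and Nelfa, a subunit of the pausing complex NELF, by 0.64 ± 0.16. Another NELF subunit, Nelfcd, fell (-1.20 ± 0.28).

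Ell2 is shown by array because it had the smallest p-value of the elongation list. It read 9.85, 9.97, 10.14 and 9.13 in control+B12 and 11.05, 11.11, 11.25 and 11.35 in H/R+B12, again without overlap. Nuclear pore and transport genes had 11 of 58 higher and 0 lower (19%), a share under that of expressed probe sets but in one direction. The tRNA exporter Xpot rose by 1.02 ± 0.18 and the pore subunits Seh1l and Nup54 by 0.97 ± 0.15 and 0.78 ± 0.13. Of 45 Mediator and Integrator subunits 10 rose and 7 fell (37.8%).

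Chromatin genes were called at shares at or below the 35.3% of expressed probe sets. Of 28 histone demethylases, enzymes that need oxygen, 7 rose and 1 fell (28.6%), and 5 were below background. Kdm3a read 10.96, 10.71, 10.66 and 10.72 in control+B12 and 12.17, 12.03, 12.07 and 11.80 in H/R+B12. Its arrays did not overlap and the difference was 1.26 ± 0.13. Kdm4b rose by 1.46 ± 0.21, Kdm6b by 1.43 ± 0.16 and the hydroxylase Jmjd6 by 1.21 ± 0.20. Histone methyltransferases and Polycomb genes had 11 higher and 8 lower of 66 (28.8%), and SWI/SNF, CHD and ISWI remodellers 6 and 5 of 36 (30.6%). Genes of histone acetylation and deacetylation had 4 higher and 10 lower of 40 (35%, median -0.14), and 5 and 7 with a median of -0.05 under array-median centring. The deacetylases Hdac11 and Hdac8 fell (-1.28 ± 0.19 and -1.06 ± 0.17), as did Sirt3, a deacetylase of mitochondria (-0.81 ± 0.17), while the acetyltransferase Kat5 rose (1.09 ± 0.13). The 415 C2H2 zinc finger genes split evenly, 44 higher and 47 lower (21.9%), with 33 to 50 higher and 29 to 58 lower over the settings. Centring on array medians gave 50 higher and 29 lower.

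In the lists of folding and transport in the ER, called genes were mostly lower, except those of ER-associated degradation. Of 27 ER chaperones and unfolded protein response genes 14 were lower and 3 higher (63%, median -0.43). The ER oxidase Ero1a, which rose by 4.19, was listed with the HIF targets and is not in this count. Sdf2l1, a partner of the chaperone BiP, read 10.06, 9.39, 9.29 and 9.58 in control+B12 and 7.24, 7.61, 7.33 and 7.40 in H/R+B12. Every H/R+B12 array was lower than every control array, by 2.19 ± 0.19 on average. The lectin chaperone Calr fell (-0.74 ± 0.11), as did the disulfide isomerase Pdia6 (-0.83 ± 0.13) and the co-chaperone Dnajc3 (-0.97 ± 0.17), 3 of the genes whose promoter elements are printed above. Dnajb9 rose (0.85 ± 0.15), as did the stress sensor Atf6 (0.73 ± 0.13). Of 26 genes of ER-associated degradation 6 rose and 3 fell, led by Herpud1 (0.93 ± 0.17), which is induced by both ATF4 and ER stress.

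At the entry point to the ER, called genes were mostly lower too. 15 of 34 genes of the translocon, signal peptidase and oligosaccharyltransferase fell and 2 rose (50%, median -0.27), against 15 and 3 without B12. Tram1, which helps nascent chains into the membrane, read 13.85, 13.83, 14.04 and 13.70 in control+B12 and 12.06, 12.15, 11.95 and 12.15 in H/R+B12. The groups were separated by 1.78 ± 0.12. Subunits of the oligosaccharyltransferase, which adds N-glycans, fell: Ost4 by 1.43 ± 0.12, Magt1 by 1.18 ± 0.14 and Ostc by 0.87 ± 0.15. Tram2, a paralog of Tram1, rose (0.84 ± 0.13). Synthesis of N-glycans and of the GPI anchor had 15 of 65 genes lower and 3 higher (median -0.33). Gpaa1, a subunit of the GPI transamidase, read 11.12, 10.84, 11.17 and 11.25 in control+B12 and 9.99, 9.49, 10.23 and 10.03 in H/R+B12. Its groups did not overlap (-1.16 ± 0.17). The transamidase subunits Pigk and Pigs fell as well (-1.12 ± 0.18 and -1.20 ± 0.23).

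Traffic beyond the ER was less affected. COPI, COPII and Golgi genes had 4 higher and 5 lower of 53 (17%), under the share of expressed probe sets. Among 60 genes of the lysosome and its proton pump 12 fell and 3 rose, and 19 were below background. The number higher was 5 with an intensity trend and with array-median centring. Gusb, the beta-glucuronidase, read 12.02, 12.31, 12.22 and 12.07 in control+B12 and 10.21, 10.45, 10.48 and 10.26 in H/R+B12. This was a clear separation, of -1.80 ± 0.16. Hexa, a hexosaminidase subunit, fell (-1.39 ± 0.14), as did the saposin precursor Psap (-0.69 ± 0.11), while the lysosomal transcription factor Tfe3 rose (0.94 ± 0.23). Autophagy genes went both ways, 7 higher and 4 lower of 37: the cargo receptor Sqstm1 rose (0.99 ± 0.12) and Map1lc3b and Gabarapl2, which coat the autophagosome, fell (-0.77 ± 0.13 and -1.15 ± 0.27).

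**Figure D3:**
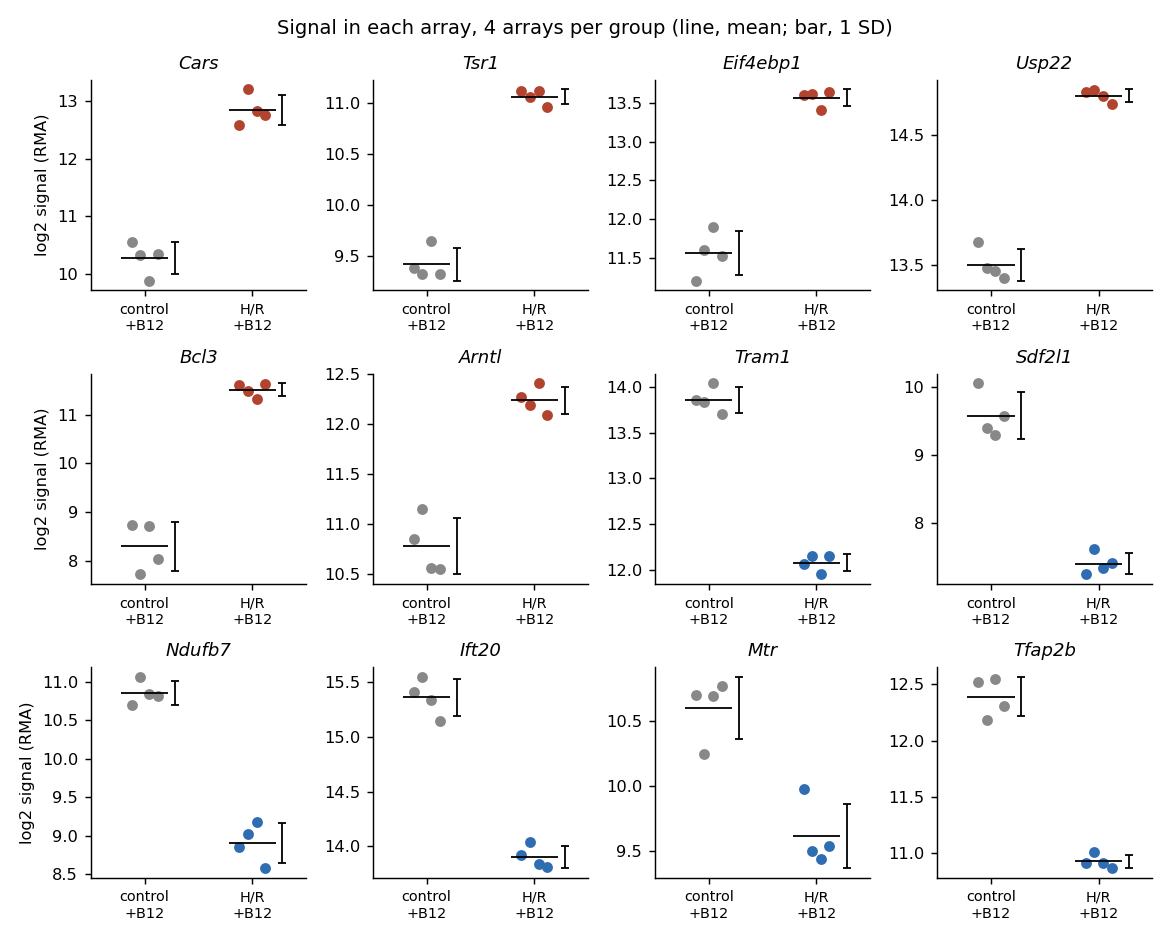
Deposited log2 RMA signal (y axis) of 12 genes in each of the 4 control+B12 arrays (grey) and the 4 H/R+B12 arrays (red where higher, blue where lower), with the group mean as a line and 1 SD as a bar. The groups do not overlap in any of the 12 genes, and the SD within a group is small beside the distance between groups, as for Tram1 (-1.78 ± 0.12) and Cars (2.55 ± 0.19).

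Called genes of mitochondrial respiration were nearly all lower. In complex I, where NADH gives up its electrons, 25 of 46 genes were lower and 0 higher (54.3%, median -0.53). The accessory subunit Ndufb7 read 10.70, 11.06, 10.84 and 10.81 in control+B12 and 8.85, 9.02, 9.18 and 8.58 in H/R+B12. The lowest control array was well above the highest H/R+B12 array, and the difference was -1.94 ± 0.17. Ndufc1, Ndufb2 and Ndufa4 fell by 1.30 ± 0.14, 1.36 ± 0.17 and 1.29 ± 0.15. In complexes II to V 26 of 48 fell and 1 rose (56.2%, median -0.52), among them the ATP synthase genes Atp5j (-0.98 ± 0.14), Atp5d (-0.92 ± 0.13) and Atp5g3 (-0.83 ± 0.11) and the cytochrome oxidase gene Cox7b (-0.84 ± 0.13). Most of these changes were under 2-fold: 5 of the 25 in complex I and 1 of the 26 in the others reached it.

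Mitochondria's own ribosome and import machinery were mixed. 19 of 78 mitochondrial ribosomal protein genes fell and 6 rose (median -0.23), led by Mrpl49 (-0.86 ± 0.13), Mrpl41 (-1.43 ± 0.23) and Mrps21 (-1.01 ± 0.19), with Mrps18b higher (1.36 ± 0.23). In protein import 12 fell and 8 rose of 41 (48.8%). The matrix chaperone Hspa9, which pulls proteins through the inner membrane, read 12.18, 11.81, 11.93 and 11.76 in control+B12 and 13.16, 13.15, 13.24 and 13.06 in H/R+B12. It rose without overlap (1.23 ± 0.15), while the channel subunits Timm17b and Timm21 fell (-1.14 ± 0.14 and -1.10 ± 0.19). Among 51 mitochondrial carriers 10 fell and 5 rose. The dicarboxylate carrier Slc25a10 fell (-1.75 ± 0.20), as did Mtch1, an insertase of the outer membrane (-1.26 ± 0.13), and the iron carrier Slc25a28 rose (1.06 ± 0.14).

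Some genes of mitochondrial removal rose. Bnip3, a HIF target that recruits autophagosomes to mitochondria, read 13.11, 13.09, 13.48 and 12.85 in control+B12 and 15.17, 15.16, 15.09 and 14.93 in H/R+B12. It rose by 1.95 ± 0.16 in non-overlapping groups. Its relative Bnip3l rose (0.64 ± 0.11), as did the ligase Mul1 (0.77 ± 0.13) and the matrix protease Lonp1 (0.81 ± 0.15), and the receptor Fundc1 fell (-0.61 ± 0.15). Over the whole list of mitochondrial shape and quality control 7 of 26 rose and 4 fell, with 4 to 8 higher and 3 to 7 lower over the settings. The fits that moved a count by over 1.5 times were those of 8 arrays, of an intensity trend and of quantile normalization.

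Genes that burn fatty acids, the main fuel of this segment in the kidney, fell where they were called. Of 28 genes of fatty acid oxidation 12 fell and 0 rose (42.9%, median -0.45), and 7 were below background. Hsd17b4, an enzyme of the peroxisomal cycle, read 12.25, 12.31, 12.45 and 12.34 in control+B12 and 11.61, 11.37, 11.55 and 11.41 in H/R+B12. It fell by 0.85 ± 0.13 without overlap. In the mitochondrial cycle the medium-chain dehydrogenase Acadm fell (-0.88 ± 0.15), as did the short-chain dehydrogenase Acads (-1.13 ± 0.20) and Hadh (-0.64 ± 0.12). Peroxisome biogenesis did not share in this, with 0 higher and 2 lower of 28 (7.14%), one of them the membrane protein Pxmp4 (-1.30 ± 0.26). Synthesis of phospholipids and triglycerides had 9 higher and 8 lower of 38 (44.7%): the phosphatidate phosphatase Lpin1 rose (1.30 ± 0.18), as did choline kinase, Chka (1.07 ± 0.17), and the acyltransferases Lpcat3 and Agpat1 fell (-0.88 ± 0.12 and -0.82 ± 0.12).

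Genes that defend against oxidants fell more often than they rose. Of 41 genes of the glutathione and thioredoxin systems 17 fell and 3 rose (median -0.39), against 23 and 2 without B12. Gstp1, a glutathione transferase, read 12.81, 13.21, 12.89 and 12.81 in control+B12 and 11.56, 12.03, 11.96 and 11.69 in H/R+B12. The groups did not overlap (-1.12 ± 0.14). Gstm1, Gpx8 and Glrx2 fell by 0.71 ± 0.13, 0.89 ± 0.16 and 0.90 ± 0.18. The heme oxygenase Hmox1 rose (1.44 ± 0.15), as did Txnip, which binds thioredoxin (0.65 ± 0.13).

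The genes that handle vitamin B12 were measured in cells given it in both groups. Of 19 genes 6 fell and 1 rose (36.8%, median -0.32), a called share near the 35.3% of expressed probe sets. Methionine synthase, Mtr, read 10.70, 10.25, 10.69 and 10.77 in control+B12 and 9.98, 9.50, 9.44 and 9.54 in H/R+B12. All H/R+B12 arrays were below all control+B12 arrays, by 0.99 ± 0.17. The mutase Mmut fell (-0.59 ± 0.13), as did Mmab, which makes its cofactor (-0.89 ± 0.17), and Cd320, the receptor that takes in the vitamin (-0.79 ± 0.18). Without B12 the differences were -0.92 ± 0.17 for Mtr, -0.47 ± 0.13 for Mmut and -0.80 ± 0.18 for Cd320, all called there as well. The carrier protein transcobalamin, Tcn2, read 14.26, 14.56, 14.35 and 14.39 in control+B12 and 13.78, 13.77, 13.84 and 13.97 in H/R+B12. Its groups were close and its call was not stable: the difference was -0.55 ± 0.17 (limma adjusted p = 0.0273), and the call was lost when arrays were centred on their medians (adjusted p = 0.0630) and when single arrays were left out (0.0536 to 0.0764 without control+B12 array 2 or 4 or H/R+B12 array 1, 2 or 3).

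Folate and serine genes around Mtr went both ways, 7 higher and 4 lower of 30 (36.7%), near the 35.3% of expressed probe sets. The mitochondrial folate enzymes Mthfd1l, Aldh1l2 and Shmt2 rose by 1.86 ± 0.18, 1.87 ± 0.28 and 0.55 ± 0.14, and the glycine cleavage protein Gcsh fell (-0.82 ± 0.15). The number higher was 4 without control+B12 array 3 and 4 without H/R+B12 array 3.

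Genes of protein turnover were called at shares under or near the 35.3% of expressed probe sets. Of 70 ubiquitin-specific proteases taken by name 19 rose and 3 fell (31.4%), 18 and 3 of 69 without Usp6nl, a GTPase regulator that the name pattern also takes. Usp22, a subunit of the SAGA coactivator, read 13.68, 13.48, 13.46 and 13.40 in control+B12 and 14.83, 14.85, 14.80 and 14.74 in H/R+B12. It rose without overlap (1.30 ± 0.12), and so did Usp54 (2.15 ± 0.19) and the nucleolar Usp36 (2.31 ± 0.31), while Usp46 fell (-1.09 ± 0.20). Of 48 proteasome genes 3 rose and 8 fell (22.9%), with 1 to 5 higher and 5 to 10 lower over the settings and 4 and 5 under array-median centring. The core subunits Psmb3, Psmb4 and Psma1 fell (-0.82 ± 0.16, -0.67 ± 0.12 and -0.63 ± 0.15). Among conjugating enzymes 10 of 37 rose and 3 fell, and without the dimmest 25% of probe sets the number lower was 5.

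Brakes on growth factor signalling that were called were mostly higher. Of 40 genes taken by name pattern for MAP kinase phosphatases, Sproutys and Spreds, with Errfi1 among them, 15 rose and 4 fell (47.5%). Dusp5, a nuclear phosphatase of ERK, read 6.41, 6.21, 7.01 and 6.28 in control+B12 and 9.56, 9.88, 9.11 and 9.92 in H/R+B12. The groups were separated by 3.14 ± 0.25. Dusp10 and Dusp16, which act on JNK and p38, rose by 2.44 ± 0.21 and 1.96 ± 0.18, and Errfi1, an inhibitor of the EGF receptor, by 1.83 ± 0.17. Spry1 fell (-1.0 ± 0.17), and the phosphatase gene Dusp19 fell by more. The list of EGF and FGF ligands and receptors, which also holds Pdgfb, Irs1 and Irs2, had 8 of 35 genes higher and 3 lower. The ligand Nrg1 rose (2.21 ± 0.15), as did the receptor Egfr (1.58 ± 0.14), and the insulin receptor substrates split, with Irs1 higher (1.0 ± 0.20) and Irs2 lower (-0.78 ± 0.16).

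In the TGF-β family nearly all called genes were higher. Of 46 genes 17 rose and 1 fell (39.1%, median 0.27), with 13 below background. The ligand Tgfb2 read 9.53, 9.47, 9.43 and 8.85 in control+B12 and 11.58, 11.52, 11.17 and 11.85 in H/R+B12. It rose by 2.21 ± 0.17 with no overlap. The BMP target Id1 rose (2.62 ± 0.25), as did the repressor of SMAD signalling Tgif1 (1.89 ± 0.16) and the activin antagonist Fst (1.71 ± 0.22). Without B12 the counts were 16 and 0. The Notch list held 6 higher and 3 lower genes of 27: the receptor Notch1 rose (2.32 ± 0.25), as did the DNA-binding partner Rbpj (1.88 ± 0.16), and the coactivator Maml2 fell (-1.49 ± 0.19).

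The NF-κB list holds the subunits and their inhibitors. 11 of 32 genes rose and 3 fell (43.8%, median 0.30). Bcl3, a nuclear partner of the p50 and p52 subunits, read 8.73, 7.72, 8.71 and 8.03 in control+B12 and 11.60, 11.49, 11.32 and 11.62 in H/R+B12. It rose by 3.21 ± 0.21, and the subunits Nfkb2 and Rela by 1.46 ± 0.16 and 0.91 ± 0.12. The inhibitor Nfkbia, which the pathway induces and which holds NF-κB in the cytosol, read 10.88, 11.01, 10.67 and 11.03 in control+B12 and 10.00, 9.59, 10.32 and 9.70 in H/R+B12. It was lower in every H/R+B12 array (-0.99 ± 0.18). Tnfaip3 (A20), another induced inhibitor, fell too (-1.36 ± 0.26), while Tnip1 rose (1.02 ± 0.17). Without B12 the differences were -1.02 ± 0.18 for Nfkbia and -1.61 ± 0.26 for Tnfaip3.

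Stat3, a transcription factor downstream of cytokine receptors, had the smallest p-value of its list. It read 11.64, 12.07, 11.50 and 11.55 in control+B12 and 13.46, 13.69, 13.61 and 13.43 in H/R+B12. The groups did not overlap (1.86 ± 0.15). In that list 19 of 82 genes rose and 7 fell, and 34 were below background. The interferon receptor genes Ifngr1 and Ifnar2 rose (1.31 ± 0.15 and 1.03 ± 0.11), and the phosphatase Ptpn3 fell (-0.96 ± 0.18). The number lower was 3 without control+B12 array 1, 4 without control+B12 array 4, 2 without H/R+B12 array 2, 3 without H/R+B12 array 3 and 4 without H/R+B12 array 4. Of 90 cytokines and chemokines, 71 of them below background, 10 rose and 2 fell (13.3%), under the 18.7% of all probe sets. Those that rose included Lif, of the interleukin 6 family (2.65 ± 0.15), Cxcl10 (2.66 ± 0.20) and Cxcl1 (1.55 ± 0.19).

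Interferon-stimulated genes went both ways: 9 of 43 fell and 6 rose (34.9%), near the 35.3% of expressed probe sets. Ifit3b read 15.38, 15.55, 15.45 and 15.48 in control+B12 and 13.71, 13.34, 13.65 and 13.49 in H/R+B12. It fell without overlap (-1.92 ± 0.17), and its neighbours in the antiviral family, Ifit3 and Ifit2, by 1.63 ± 0.16 and 1.11 ± 0.15. Probes of the near-identical copies Ifit3 and Ifit3b may not be fully separate. The peptide-loading protein Tapbp fell (-0.83 ± 0.12), and the GTPase Gbp2 rose (1.18 ± 0.19).

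Genes of the circadian clock rose more often than they fell: 10 of 23 genes rose and 2 fell (52.2%, median 0.45). Arntl (BMAL1), the activator, read 10.85, 11.15, 10.56 and 10.55 in control+B12 and 12.27, 12.19, 12.41 and 12.09 in H/R+B12. It rose by 1.46 ± 0.14 with separate groups. The repressors Per1 and Ciart rose by 2.27 ± 0.24 and 2.27 ± 0.27, and the nuclear receptors Rora and Nr1d2, which act on Arntl from opposite sides, by 1.08 ± 0.15 and 1.41 ± 0.21. Without B12 9 rose and 1 fell. Time of day of the harvests is not given in the labels. In the cAMP list the salt-inducible kinases Sik1, Sik2 and Sik3 rose (1.34 ± 0.15, 1.31 ± 0.18 and 1.05 ± 0.12), and the catalytic subunit of protein kinase A, Prkaca, fell (-1.0 ± 0.13). Among 41 nuclear receptors 7 rose and 6 fell: the retinoic acid receptor Rara rose (1.46 ± 0.15), while its partner Rxra and the orphan receptor Nr2f2 fell (-1.17 ± 0.18 and -1.44 ± 0.15).

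Called genes of the primary cilium, the sensory organelle of tubule cells, were nearly all lower. The list, taken in part by name pattern, had 26 lower and 1 higher of 88 (30.7%, median -0.30), a called share under that of expressed probe sets. The list was then narrowed by removing all Ttc genes except a few kept as ciliary, a step taken after seeing the values. Of the remaining 54 genes 21 were lower and 0 higher, with a median of -0.41, and 8 of the 21 by at least 2-fold. Ift20, of the intraflagellar transport complex and the Golgi, read 15.41, 15.55, 15.34 and 15.15 in control+B12 and 13.92, 14.04, 13.84 and 13.81 in H/R+B12. The arrays of the 2 groups were far apart (-1.46 ± 0.13). Wdr19, another transport protein, fell (-1.10 ± 0.13), as did the transition zone proteins Cc2d2a (-1.66 ± 0.21) and Tctn2 (-1.0 ± 0.15). Without B12 the full list had 26 lower and 2 higher. Tubulins and microtubule motors had 22 lower and 10 higher of 99, with the kinesin Kif12 lower (-1.10 ± 0.15) and the tubulin Tubb2a higher (1.88 ± 0.25).

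Contacts and the cytoskeleton changed in selected members. Of 84 genes of tight and adherens junctions, 50 of them below background, 14 rose and 5 fell. Cldn4, a claudin that limits sodium passage, read 7.56, 7.76, 7.52 and 7.46 in control+B12 and 10.41, 10.30, 10.15 and 10.77 in H/R+B12. It rose by 2.83 ± 0.22, far beyond the spread of either group, and Cldn1 and Cldn12 by 1.0 ± 0.12 and 0.98 ± 0.14. The cation-conducting claudin of the proximal tubule, Cldn2, fell to below background, at least 1.73-fold. The number of junction genes lower was 2 without control+B12 array 2, 3 without control+B12 array 3, 2 without H/R+B12 array 1 and 2 without H/R+B12 array 2, and the number higher was 10 to 14 over the settings. Of 40 actin genes and targets of serum response factor 11 rose and 4 fell: Zyx and Vcl of focal adhesions rose (1.29 ± 0.15 and 1.34 ± 0.17), as did Pdlim5 (1.56 ± 0.12), while the matricellular gene Ccn1 fell (-0.86 ± 0.19). Integrins and focal adhesion had 12 higher and 3 lower of 49, with 5 lower under an intensity trend.

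Of 133 matrix genes, 87 of them below background, 11 fell and 7 rose (13.5%), a share under the 18.7% of all probe sets and close to even in direction. The protease inhibitor Timp2 read 15.51, 15.46, 15.45 and 15.63 in control+B12 and 14.80, 14.72, 14.65 and 14.77 in H/R+B12. It fell without overlap (-0.77 ± 0.11), as did the heparan sulfate proteoglycan Agrn (-0.98 ± 0.16) and the urokinase Plau (-1.21 ± 0.21). The urokinase receptor Plaur rose by 2.82 ± 0.24. Of 28 markers of tubule injury 7 rose and 3 fell (35.7%), a called share near the 35.3% of expressed probe sets. Anxa2 and Tnfrsf12a rose (1.21 ± 0.14 and 2.33 ± 0.14), and Krt19, below background in control+B12, was at least 3.19-fold higher, measured against the negative control level.

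Genes of cell division fell more often than they rose. Of 58 genes of mitosis and the kinetochore 12 fell and 3 rose (25.9%, median -0.16), against 19 and 1 without B12, where the median was -0.42. Spc25 read 10.83, 10.73, 10.56 and 10.50 in control+B12 and 9.15, 9.64, 9.95 and 9.34 in H/R+B12. The difference of -1.13 ± 0.17 exceeded the spread of both groups. Cenpm and Cenpk fell (-1.17 ± 0.21 and -1.11 ± 0.23) and the phosphatase Cdc25a rose (0.99 ± 0.17). In S phase and replication 9 of 50 fell and 1 rose (median -0.19), and without B12 15 fell and 0 rose. The number lower was 5 without control+B12 array 1, 5 without control+B12 array 4, 5 without H/R+B12 array 2 and 4 without H/R+B12 array 4. These shares were at or below that of expressed probe sets, and the difference between the 2 settings of B12 was tested per gene only, with no call.

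Inhibitors of the cycle included some that rose. Cdkn1a (p21) read 15.19, 15.37, 15.30 and 15.09 in control+B12 and 16.73, 16.87, 16.63 and 16.72 in H/R+B12. It rose without overlap (1.5 ± 0.12), as did Cdkn2b (1.01 ± 0.20) and the MYC antagonist Mxd1 (1.75 ± 0.23), and Cdkn2c and Rbl2 fell (-1.09 ± 0.17 and -1.21 ± 0.20). Of 33 genes in that list 9 rose and 6 fell, with 3 lower under array-median centring. DNA repair had 7 lower and 1 higher of 43 (18.6%), a called share under the 35.3% of expressed probe sets. Those that fell included the damage kinases Prkdc (-1.01 ± 0.17), Atm (-0.99 ± 0.19) and Chek2 (-1.23 ± 0.21).

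Receptors of the TNF receptor family were among the genes that rose in the apoptosis list. In that list 10 of 40 genes rose and 2 fell (30%), a called share under the 35.3% of expressed probe sets. Fas read 7.92, 8.11, 7.80 and 7.56 in control+B12 and 12.04, 12.30, 11.96 and 11.99 in H/R+B12. It rose by 4.22 ± 0.20, more than any other gene of that list. Tnfrsf12a, the TWEAK receptor, rose by 2.33 ± 0.14, Tnfrsf10b, the TRAIL receptor, by 1.21 ± 0.18, and the survival gene Bcl2l1 by 0.85 ± 0.11. Diablo, a mitochondrial activator of caspases, fell (-0.82 ± 0.20). Of 29 p53 targets 7 rose and 4 fell (37.9%), near the 35.3% of expressed probe sets. Fas, Cdkn1a and Sesn2 were higher while Sesn1 and Ei24 were lower (-0.96 ± 0.17 and -0.92 ± 0.12).

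Transcription factors of kidney development and identity fell more often than they rose: 10 of 30 fell, 2 rose and 10 were below background (median -0.34). Tfap2b read 12.52, 12.18, 12.55 and 12.31 in control+B12 and 10.91, 11.01, 10.91 and 10.87 in H/R+B12. The groups did not overlap (-1.46 ± 0.14). Sim1 fell by 1.97 ± 0.20, and the homeobox genes Hoxd10 and Hoxd9 by 1.53 ± 0.16 and 1.16 ± 0.17. Irx1 rose (1.09 ± 0.21). Without B12 11 fell and 3 rose, with a median of -0.12.

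Large changes also lay in genes outside every list. Nos2, the inducible nitric oxide synthase, read 10.74, 10.35, 10.48 and 10.68 in control+B12 and 14.24, 14.26, 13.96 and 14.00 in H/R+B12. It rose by 3.55 ± 0.18, and the survival kinase Pim2 by 3.25 ± 0.19. Nab2, which restrains the EGR factors, rose (3.01 ± 0.21), as did the receptor kinase Epha2 (2.93 ± 0.18) and the transcription factor Klf5 (2.65 ± 0.23). Several of these genes lay below background in control+B12, so their rise is a lower bound against the negative control level: at least 9.16-fold for Plcxd3, 7.53-fold for Unc13a, 4.62-fold for Abtb2 and 2.38-fold for the bradykinin receptor Bdkrb2. Unc13a is known as a factor of synaptic vesicle release. In H/R+B12 it read 8.84, 8.84, 8.99 and 8.57, all above the negative control medians of those arrays.

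Among decreases outside the lists, Arrdc3, an alpha-arrestin like Txnip, read 12.31, 12.65, 12.33 and 12.87 in control+B12 and 10.43, 10.25, 10.22 and 10.15 in H/R+B12. It fell by 2.28 ± 0.16 without overlap. The kinase Nuak2, of the AMPK family, fell by 1.99 ± 0.17, angiotensinogen, Agt, by 1.93 ± 0.22, the p38 activator Map2k6 by 2.03 ± 0.27 and the growth arrest gene Gas1 by 1.95 ± 0.27. Creb3l2, a membrane-bound factor that raises secretory capacity, fell by 1.90 ± 0.17. Tlr1 fell from 5.90, 5.96, 6.10 and 6.72 in control+B12 to below background in H/R+B12, at least 1.15-fold.

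**Figure D4:**
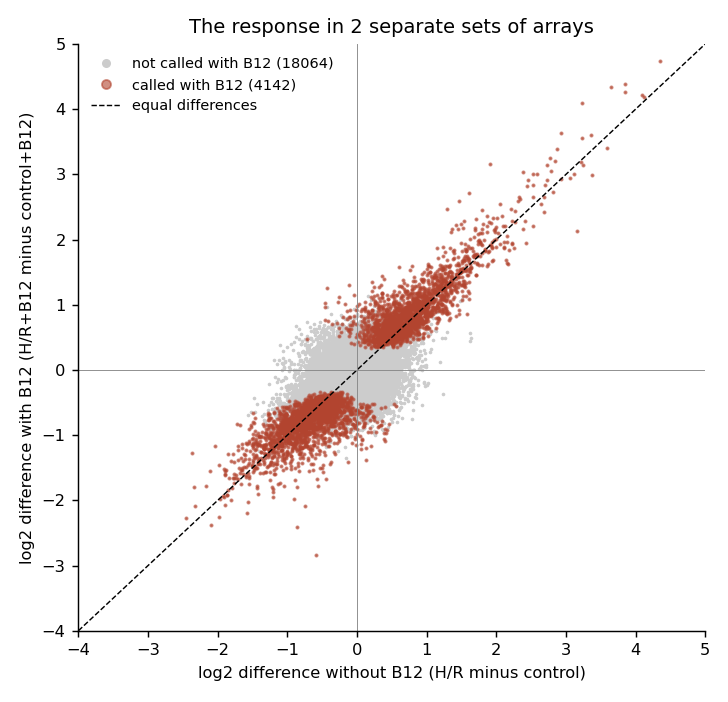
Log2 difference of each of 22206 probe sets with B12 in both groups (y axis, H/R+B12 minus control+B12) against that without B12 (x axis, H/R minus control), with the 4142 called with B12 in red and equal differences on the dashed line. The 2 sets share no array, and 97.2% of the called probe sets have the same sign in both.

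The arrays without B12 gave a second reading of nearly every change. H/R against control called 3919 probe sets (17.6%), 1801 higher (8.11%) and 2118 lower (9.54%). Of the 4142 called with B12, 4027 (97.2%) had the same sign without it and 2940 were called there in the same direction. Only 3 were called in opposite directions, 1 of them with a gene name, Cercam, whose signal was below background in both groups. Across all 22206 probe sets the 2 sets of differences correlated at 0.751, as a description over probe sets that are not independent. Both come from one fit with a shared estimate of spread.

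**Figure D5:**
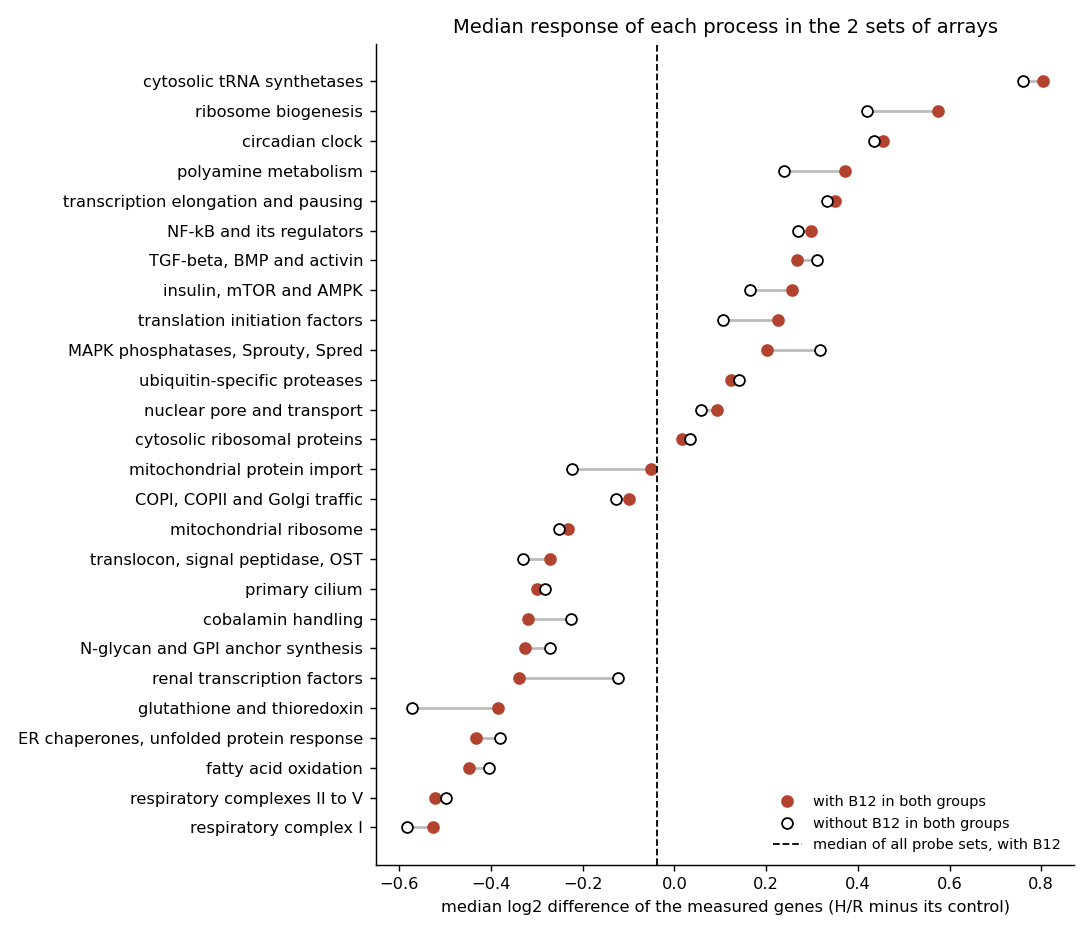
Median log2 difference (x axis) of the measured genes of 26 lists with B12 in both groups (filled red) and without B12 (open), and the median of all probe sets with B12, -0.04, as a dashed line. The order of the lists is similar in both sets, with tRNA synthetases at 0.80 and 0.76 and complex I at -0.53 and -0.58.

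The test of the difference between the responses with and without B12 called 0 probe sets at an adjusted p under 0.05 (0% called), and 1071 (4.82%) had an unadjusted p under 0.05. Counts were also 0 in the 8 other fits or scalings in which this difference could be computed. The 5 smallest p-values were those of Mfsd5, a molybdate transporter, Dtd1, which clears D-amino acids from tRNA, Cercam, the protease relative Adam30 and the RNA exosome subunit Exosc9. Mfsd5 rose with B12 (1.11 ± 0.19) and differed by -0.25 ± 0.19 without it. Its groups read 6.15, 6.03, 5.67 and 5.87 in control+B12 and 7.16, 7.46, 6.71 and 6.85 in H/R+B12. The control+B12 readings lay near the negative control medians of those arrays (5.715 to 6.078). Exosc9 differed by 0.04 ± 0.12 with B12 and by -0.70 ± 0.12 without it. None of the 5 passed (limma adjusted p = 0.803 for each), and a p that misses the threshold does not show that the responses were alike.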

How the data were processed

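Total RNA of 16 samples was hybridised to Affymetrix arrays, from 700 pg per sample. Per the submitters' processing notes the authors made log2 signals by RMA with Affymetrix Expression Console and Transcriptome Analysis Console. Neither program's version is given. The deposited log2 values were used without further normalization. Of 28846 features, 6640 controls were left out. RMA shares one scale over all arrays, so values are relative and a change in total RNA per cell cannot be seen.

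All 16 arrays were fitted with limma 3.58.1 in R 4.3.3 as 4 groups, with a two-sided moderated test. The 4-group fit also gave H/R against control and the difference between the 2 responses. A gene with several probe sets was represented by the brightest, and 2634 probe sets have no name here. The fit was tested on simulated data of 22206 probe sets, with 67, 67 and 66 changed by log2 values of 0.5, 1 and 2 in this comparison. It recovered 8.96% of the changes of 0.5, 59.7% of those of 1 and 95.5% of those of 2. The simulation changed 200 probe sets, whereas 4142 were called in the data, so these rates hold for the simulated setting only.

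The 101 lists were written from general knowledge, and 132 of 1714 entries matched no measured gene. The members and lists were chosen with earlier results of these data known. Named are, per list, up to 4 called genes of the majority direction and 2 of the other with the smallest p, the 15 largest changes each way outside the lists, the 5 smallest p of the difference, and Tcn2, Cd320, Mtr, Mmut, Havcr1 and Lcn2. Predicted and small RNA genes were passed over. Alternatives were the block, the 8 arrays alone, robust variances with a trend on intensity, weights per array, the dimmest 25% left out, quantile normalization, 2 centrings, 1 probe set per gene, 2-fold rules and leaving out each array.

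Promoters of RefSeq (GRCm38.p6) matched 15691 measured genes. The 14 motifs, searched on both strands in the 250 bases before the start, were the amino acid response element TGATGNAAN, the cAMP element TGACGTCA, the E-box CACGTG, the sterol element TCACCCCAC, the hypoxia element TACGTG, the XBP1 element TGACGTGG, the ETS motif CCGGAAGT, the ER stress element (CCAAT, 9 bases, CCACG), and by name the heat shock, NRF1, second ER stress, CArG, CLEAR and YY1 elements. The CLEAR element contains the E-box. Plots used Python 3.11.15 and matplotlib 3.10.9.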

Additional observations from a re-analysis of the deposited data

Results flagged for a closer look

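For the 244 genes whose values are given, and for 3 array-level medians, the 4 arrays of each group were searched for one that stands apart. A group was picked out when the gap between its highest or lowest array and the nearest other array, divided by the group's whole range (Dixon's ratio), passed the 95% critical value for 4 arrays. This happened in 27 of 494 groups, and chance alone picks out about 1 in 20. In control+B12 the genes, with the array, its side and the ratio, were Atf3 (array 2, high, 0.831), Castor2 (array 1, high, 0.833), Hdac8 (array 3, low, 0.920), Dnajc3 (array 1, low, 0.830), Tfe3 (array 3, low, 0.972), Mrps21 (array 4, high, 0.900), Mtr (array 2, low, 0.846), Cd320 (array 1, low, 0.857), Dusp16 (array 3, high, 0.913), Tgfb2 (array 4, low, 0.853), Per1 (array 1, low, 0.838), Atm (array 3, high, 0.837) and Creb3l2 (array 4, high, 0.860). In H/R+B12 they were Aqp1 (array 1, high, 0.951), Smox (array 2, low, 0.875), Qars (array 2, low, 0.909), Eif4ebp1 (array 3, low, 0.833), Ell (array 4, low, 0.901), Gpx8 (array 3, high, 0.848), Mthfd1l (array 4, low, 0.853), Tnfaip3 (array 1, low, 0.900), Ifnar2 (array 4, low, 0.833), Cxcl10 (array 1, low, 0.857), Nr1d2 (array 4, high, 0.879), Cldn1 (array 2, low, 1.000), Cdc25a (array 1, low, 0.864) and Exosc9 (array 1, low, 0.846). No single array accounted for most of them, and the calls of these genes were kept when each array was left out in turn. None of the array-level medians was picked out, and no difference between the responses with and without B12 passed its test.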

How the results depend on the processing

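The count of 4142 called probe sets was 3411 to 4725 over 9 other ways of fitting or scaling, and 3528 to 3662 when single arrays were left out. The counts higher and lower were 1726 to 1808 and 1785 to 1908 without single arrays. Requiring a 2-fold change left 1190 probe sets (675 higher, 515 lower), and with an unadjusted p 1214 (682 higher, 532 lower), since most called changes were smaller. Centring on array medians gave 2417 higher and 1605 lower, as stated with the counts, and centring on the medians of expressed probe sets, added after seeing the data, gave 2023 and 2097. The difference between the 2 responses gave 0 calls in the 8 other fits or scalings run for it and without each of the 16 arrays. It needs all 4 groups, so the fit of 8 arrays gives none, and the 2-fold rules were not applied to it.

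The replicate number as a block gave 3932 calls (1915 higher, 2017 lower). Same-numbered arrays did not deviate together (correlations of -0.072 to 0.060 over 4 pairs), so the numbers were not taken as a pairing. Of 548 genes eligible for naming, 502 kept their call and direction in all 17 settings, 46 lost the call in at least 1 and 0 reversed. Of 101 lists, 36 had a median that changed sign somewhere, and 31 had a count of 5 or more that moved by over 1.5 times; counts under 5 were not compared this way. The number of arrays and the level of the negative controls limit the precision for dim genes: 11371 probe sets lay below background in both groups, and 310 of them were called.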
